A study of Mus musculus with 24 samples.

Results

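The genes described here are 8 genes that neutrophils express or respond to, S100a8, S100a9, Retnlg, Lcn2, Cxcr2, Csf3r, Cxcl2 and Cxcl5, chosen by symbol from the 54532 genes counted by RNA-Seq in 4 tissues (heart, tongue, stomach and muscle) of Trex1-KO mice (Trex1-/-). Each tissue had 3 control and 3 SN-011 samples, 24 in all, and every mouse, control or treated, lacked Trex1, the exonuclease that clears cytosolic DNA, so no wild-type level was measured. SN-011 is an antagonist of STING, the adaptor that passes the signal of cytosolic DNA on to type I interferon. The sample labels give SN-011 at 5 mg/kg, 3 times per week for 4 weeks, and call the controls untreated, whereas the methods of the study give 10 mg/kg every day for 2 weeks, by intraperitoneal injection, to mice of 1 month of age on a C57BL/6J background, with a vehicle control. Samples were grouped by tissue and treatment, on which the labels and methods do not differ. Whether the samples numbered alike in the 4 tissues came from the same mouse is not stated.

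Neutrophils are short-lived granulocytes that are made in the marrow and enter tissue from the blood. S100a8 and S100a9 encode the subunits of calprotectin, which fills the neutrophil cytosol, Lcn2 encodes the siderophore-binding protein lipocalin-2 of the specific granules, and Retnlg encodes a resistin-like protein of mature neutrophils. Csf3r is the receptor for the growth factor G-CSF, Cxcr2 is the receptor that draws neutrophils along a chemokine gradient, and Cxcl2 and Cxcl5 are chemokine ligands of Cxcr2 made by macrophages, epithelium and stroma. Several of these genes are not particular to neutrophils, since stressed squamous epithelium makes S100a8 and S100a9, and many epithelia make Lcn2. A bulk sample cannot tell fewer cells of a type from less RNA per cell.

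The 250 bases before the RefSeq start were found for 7 of the 8 genes, all except Cxcl5. They were searched on both strands for TTNNGNAA (letters of a C/EBP site), GGGNNTTTCC (NF-kB), TGANTCA (AP-1), GAAANNGAAA (ISRE, the element of interferon response) and TATAAA, which are present in 36.8%, 1.41%, 6.75%, 2.98% and 12.4% of the 32851 RefSeq windows of this length. The C/EBP letters occurred in the windows of S100a8, S100a9, Retnlg, Lcn2 and Cxcl2, the NF-kB letters only in that of Cxcl2, at 2 places, TATAAA only in that of S100a8, 30 to 25 bases before the start, and the AP-1 and ISRE letters in none of the 7. The Lcn2 window lies inside that gene as annotated in GENCODE, not upstream of it. For Retnlg, the bases after the RefSeq start were not found in a GENCODE transcript of the gene. Shown here, from RefSeq on GRCm38.p6 and written 5′ to 3′, are S100a8 and S100a9, whose counts jumped together in a single library, and Cxcl2, the window with the NF-kB letters. Capitals mark the matches, and each stretch ends where an annotated exon begins, which leaves off the TATAAA of S100a8. The stretches are chr3:90668821-90668977 on the plus strand, chr3:90695722-90695971 on the minus strand and chr5:90903649-90903870 on the plus strand.
S100a8: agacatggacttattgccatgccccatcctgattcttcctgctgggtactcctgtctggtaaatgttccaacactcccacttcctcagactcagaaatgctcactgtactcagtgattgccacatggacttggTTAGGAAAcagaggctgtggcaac
S100a9: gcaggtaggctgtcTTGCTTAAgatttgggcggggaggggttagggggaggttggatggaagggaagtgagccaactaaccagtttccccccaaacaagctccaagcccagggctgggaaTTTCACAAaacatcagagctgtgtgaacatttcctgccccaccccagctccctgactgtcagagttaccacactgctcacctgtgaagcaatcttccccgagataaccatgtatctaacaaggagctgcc
Cxcl2: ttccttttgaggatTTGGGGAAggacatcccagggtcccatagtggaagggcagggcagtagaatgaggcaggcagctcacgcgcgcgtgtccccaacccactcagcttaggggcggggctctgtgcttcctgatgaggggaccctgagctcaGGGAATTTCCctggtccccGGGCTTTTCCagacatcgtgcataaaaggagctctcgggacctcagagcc
A match of letters is a description of the window and does not show that a factor binds there.

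Counts per sample summed to 14253416 to 18443329, so that 3 counts, taken as the floor, were worth 0.163 to 0.210 CPM, counts scaled to the library's total, a limit that covers counting error only. CPM of genes were scaled to the total after TMM adjustment. Only 11546 genes were detected in muscle SN-011 replicate 2, where every other sample had 19798 or more. In control replicate 1 of every tissue, Xist of the X chromosome had 3060 to 13811 counts and Ddx3y of the Y chromosome at most 3, and in the other 20 samples they had at most 20 and at least 825. By these counts control replicate 1 was female and the other samples, with every SN-011 sample, were male. Sex was thus not balanced between control and SN-011 samples, and its part in the results was not tested. Summed gastric gland markers reached 2583 CPM in heart controls against 33.5 CPM in heart SN-011 samples, and 2522 against 39.4 CPM in the tongue, and their part in the results was not tested. Trex1 was at 0 counts in each of the 24 samples, which does not check the genotype because the gene overlaps Atrip. Ly6g, the antigen used to sort neutrophils, had 0 to 3 counts in every library. Of the enzymes of the primary granules made in the marrow, Elane, Mpo and Ctsg had 0 to 9 counts and Prtn3 0 to 28. Listed genes of the specific granules reached from 25 (Ngp) to 460 (Ltf) counts in the library where each was highest.

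Within each tissue, the counts of SN-011 and control samples were compared in edgeR (quasi-likelihood test). Adjustment followed Benjamini-Hochberg over all genes that passed a filter on low counts, and the threshold was 0.05. The filter kept 6 of the 8 genes in the heart and stomach and 4 in the muscle and tongue. None of them passed the threshold in any tissue. Of all genes tested, 0.848% passed in the heart, 0.0141% in the muscle and 0.0% in the stomach and tongue. At an unadjusted p under 0.05, Lcn2 was higher in the heart (1 of 6, where 10.8% of all genes tested were), S100a9, Csf3r and Lcn2 were higher in the stomach (3 of 6, where 13.2% were), Lcn2 was higher in the muscle (1 of 4, where 8.96% were), and S100a8 and S100a9 were lower in the tongue (2 of 4, where 7.33% were). The median log2 fold change of the tested genes was 2.03 (stomach) and 0.66 (muscle), and −0.11 in the heart and −2.69 in the tongue, and over all genes tested it lay between −0.08 and 0.00. All 6 values were positive in the stomach and all 4 in the muscle, whereas 3 of 6 were positive in the heart and 1 of 4 in the tongue.

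**Figure D1:**
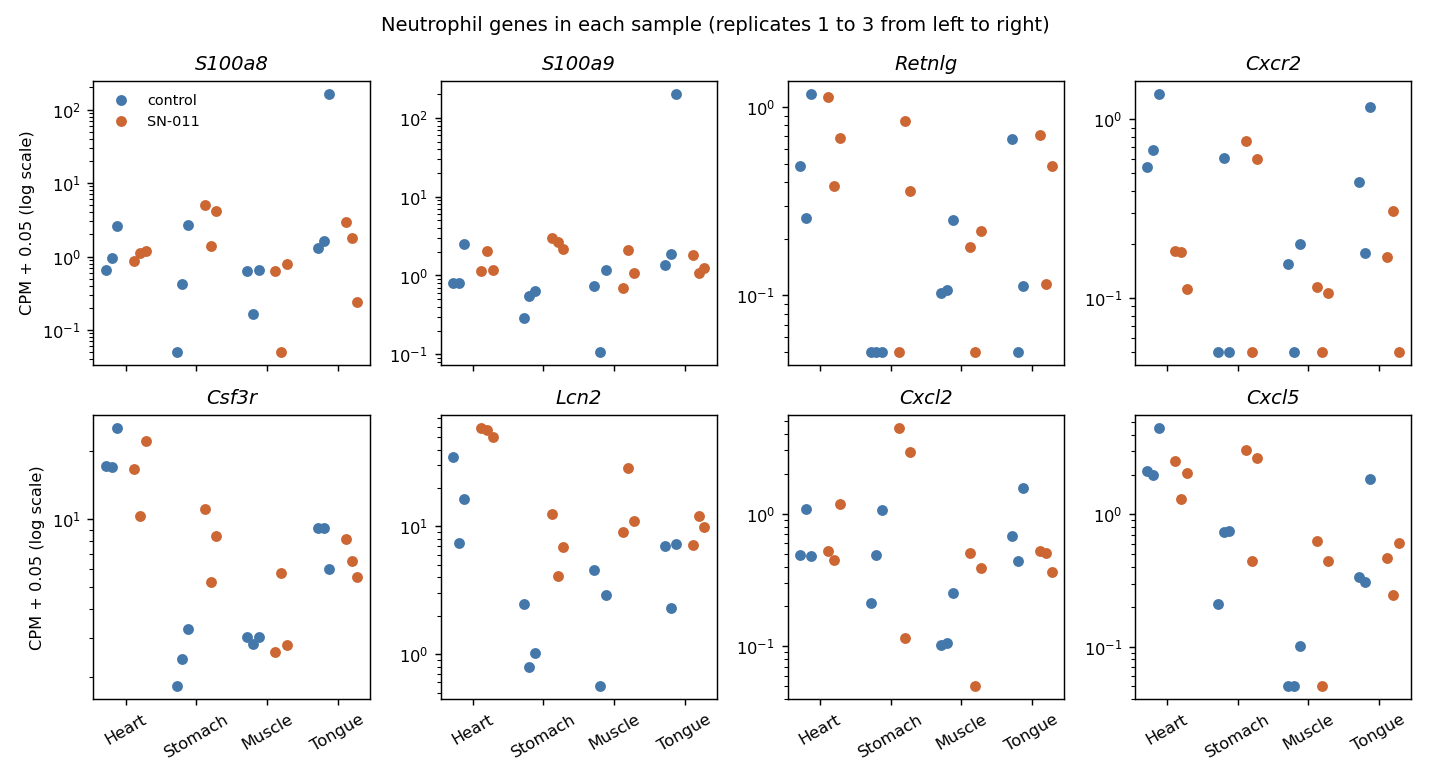
CPM of each gene (plus 0.05, log scale) in every sample of the 4 tissues, with control samples in blue and SN-011 samples in orange and replicates 1 to 3 from left to right. Lcn2 lies higher in all 3 SN-011 samples than in all 3 controls of the heart, stomach and muscle, and S100a8 and S100a9 stand far above every other sample in tongue control replicate 3.

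**Figure D2:**
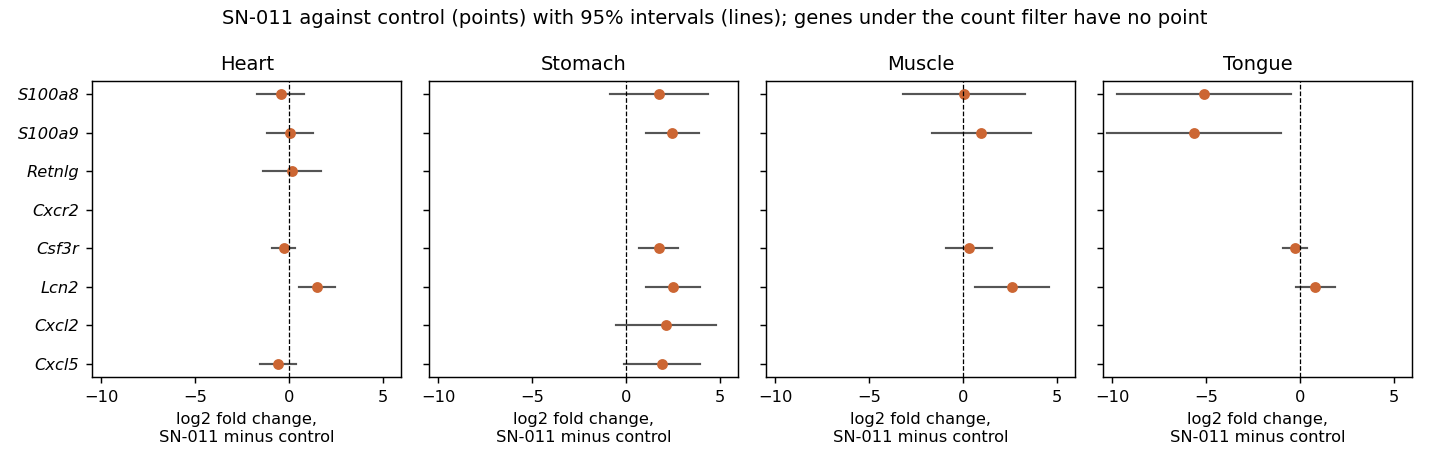
Log2 fold change of SN-011 minus control in each tissue, with the 95% interval from edgeR's quasi-likelihood fit as a line. The intervals of Lcn2 lie above 0 in the heart, stomach and muscle, and those of S100a8 and S100a9 in the tongue span several log2 units.

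Lcn2 (ENSMUSG00000026822, chromosome 2 of GRCm38, 32384633 to 32388252, minus strand) had the most counts of the 8 genes in the heart. Heart controls had 34.8, 7.39 and 16.3 CPM and SN-011 samples 58.7, 56.9 and 49.8 CPM, from 107 to 874 counts. Every SN-011 heart sample lay above every control, and the spread was wide among controls and narrow among SN-011 samples. The log2 fold change was 1.49 (SE 0.43, 95% interval 0.53 to 2.46, n = 3 per group), with an adjusted p of 0.107 in edgeR's quasi-likelihood test. In the stomach, controls had 2.42, 0.748 and 0.963 CPM and SN-011 samples 12.5, 4.02 and 6.82 CPM, again without overlap (log2 fold change 2.51, SE 0.64, adjusted p = 0.0853). In the muscle, controls had 4.49, 0.509 and 2.87 CPM and SN-011 samples 9.02, 28.7 and 10.9 CPM (log2 fold change 2.62, SE 0.83, adjusted p = 0.246). The highest of these was the library with few detected genes, without which the muscle value was 1.92 (adjusted p = 0.103).

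Groups that did not overlap, with SN-011 higher, were found for 14.1%, 17.8% and 14.7% of all genes tested in the heart, stomach and muscle. In the tongue, the Lcn2 groups overlapped, at 6.99, 2.27 and 7.24 CPM in controls and 7.16, 11.97 and 9.84 CPM in SN-011 samples (log2 fold change 0.81, SE 0.44, adjusted p = 0.474). The Lcn2 value was thus positive in all 4 tissues, and it stayed positive with each sample left out, at 1.11 to 2.19 (heart), 1.99 to 3.14 (stomach), 1.92 to 3.24 (muscle) and 0.44 to 1.05 (tongue). Control replicate 2 was the lowest control for Lcn2 in each of the 4 tissues, and if these are tissues of the same mice they are not independent. The call depended on the method: without the filter Lcn2 passed in the heart (adjusted p = 8.81e-08) and stomach (adjusted p = 0.0133), with DESeq2 in the muscle (adjusted p = 0.0234) and stomach (adjusted p = 0.00363), and with edgeR's exact test it passed in the heart (adjusted p = 0.0240) and stomach (adjusted p = 0.00695).

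Markers of red blood cells had mostly positive values beside Lcn2 in all 4 tissues. Their summed level was 1399, 493 and 642 CPM in heart controls and 2516, 1510 and 1378 CPM in heart SN-011 samples, and 782, 192 and 297 CPM in muscle controls against 855 to 1159 CPM in muscle SN-011 samples. Control replicates 1, 3 and 2 thus had the same order, from high to low, for Lcn2 and for these markers in both tissues. The orders differed among the controls of the stomach and of the tongue. Among SN-011 samples they were the same in the heart and stomach but not in the muscle and tongue. Muscle SN-011 replicate 2 had the highest Lcn2 (28.7 CPM) and the lowest red cell sum (855 CPM) of its group. Of the 6 red cell genes, 6 had a positive log2 fold change in the heart (median 1.07) and 5 in the muscle (median 1.17), as did 5 of 5 tested in the stomach (median 1.11) and 5 of 6 in the tongue (median 1.47). The sums did not overlap in the muscle but did in the heart, stomach and tongue. They were 46.0 to 292 against 166 to 407 CPM in the stomach and 152 to 894 against 400.3 to 2432 CPM in the tongue. In each tissue 0 passed the adjusted threshold, and their part in the Lcn2 values was not tested.

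S100a8 (ENSMUSG00000056054, chromosome 3, 90668978 to 90670035, plus strand) and S100a9 (ENSMUSG00000056071, chromosome 3, 90692632 to 90695721, minus strand) are neighbours on chromosome 3, and their counts went together. Over the 24 samples, with each tissue's mean removed, Pearson's r of log2(CPM + 0.5) was 0.88, and S100a9 was the gene most like S100a8 among all that passed the joint filter. It was 0.52 without tongue control replicate 3, which had 2616 counts of S100a8 and 3222 of S100a9, while the other 23 libraries had 0 to 85 and 1 to 50. Tongue control replicates 1 and 2 had 22 and 24 counts of S100a8, and tongue SN-011 samples had 48, 27 and 3. S100a9 had 23 and 28 counts in those controls, and 30, 16 and 19 in the SN-011 samples. With all 6 tongue samples, the log2 fold changes were −5.10 for S100a8 (95% interval −9.73 to −0.47, adjusted p = 0.376) and −5.66 for S100a9 (−10.29 to −1.03, adjusted p = 0.352) in edgeR's quasi-likelihood test. Without that library they were 0.19 (adjusted p = 0.956) and −0.22 (adjusted p = 0.893), so the values for the tongue describe 1 library and not the control group. Without control replicate 1 both passed the threshold (adjusted p = 0.0441 and 0.0312), with the outlying library still among the 2 controls.

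**Figure D3:**
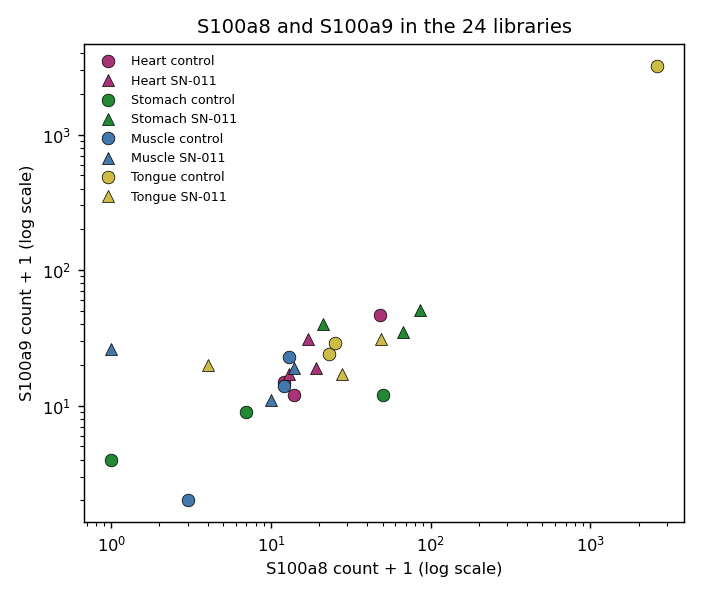
Counts of S100a8 and S100a9 (each plus 1, log scales) in the 24 libraries, with circles for control, triangles for SN-011 and a colour for each tissue. A single tongue control stands at 2616 and 3222 counts, and the others have at most 85 and 50.

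In the same tongue library, Ly6g, Elane, Mpo, Ctsg, Camp and Ngp had 0 counts. Each of these genes was at 0 in 9 to 21 of the 24 libraries, so a 0 does not set this library apart. Retnlg had 1 count there, and Csf3r had 96 against 160 and 141 in the other tongue controls. This library had the most counts of Cxcr2 (18), Cxcl2 (24) and Cxcl5 (29) of the 6 tongue samples. It also had the most of the cytokine Il1a (133 counts against 6 to 39). Markers of squamous epithelium, the lining of the tongue, were high in tongue controls 2 and 3, and their summed level ranged from 13762 to 67317 CPM in controls and from 17072 to 26742 CPM in SN-011 samples. Krt16, a keratin of stressed epithelium, had 111063 counts in control 3, 72994 in control 2 and 4607 in control 1. In the same order of controls, the summed squamous markers were 67317, 46745 and 13762 CPM, and S100a8 had 2616, 24 and 22 counts. Krt16, Il1a, Camp and Ngp are named here after their values were seen, and the part of squamous epithelium in the S100a8 and S100a9 values was not tested.

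In the stomach, S100a9 had 3, 8 and 11 counts in controls and 50, 39 and 34 in SN-011 samples, without overlap, with means of 0.443 CPM (SD 0.180) and 2.54 CPM (SD 0.430). With 3 samples in each group, the value of SN-011 minus control was 2.47 on the log2 scale (SE 0.62, adjusted p = 0.0832). S100a8 had 0, 6 and 49 counts in controls and 85, 20 and 66 in SN-011 samples, which overlapped through control replicate 3 (log2 fold change 1.75, SE 1.15, adjusted p = 0.376). In the heart, both genes had 11 to 47 counts in controls and 12 to 30 in SN-011 samples, with log2 fold changes of −0.43 (S100a8) and 0.06 (S100a9). In the muscle, S100a8 had 0 to 13 counts and S100a9 1 to 25, with log2 fold changes of 0.04 and 0.98. The signs of the heart values and of S100a8 in the muscle turned when single samples were left out, so they give no direction.

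Csf3r (ENSMUSG00000028859, chromosome 4, 126024550 to 126044440, plus strand), the receptor that carries the survival signal of neutrophils, was counted in all 24 libraries. In the stomach, controls had 1.77, 2.37 and 3.21 CPM and SN-011 samples 11.1, 5.21 and 8.41 CPM. The groups did not overlap, and the log2 fold change was 1.74 (SE 0.45, 95% interval 0.71 to 2.77, adjusted p = 0.0885). In the other tissues its groups overlapped. Heart controls had 17.2, 17.0 and 25.2 CPM and heart SN-011 samples 16.7, 10.3 and 22.2 CPM (log2 fold change −0.27, 95% interval −0.89 to 0.34). Muscle samples lay between 2.53 and 5.71 CPM (log2 fold change 0.33) and tongue samples between 5.48 and 9.13 CPM (log2 fold change −0.27). The stomach value passed the threshold with DESeq2 (adjusted p = 0.00491) and with edgeR's exact test (adjusted p = 0.0134).

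Cxcr2 (ENSMUSG00000026180, chromosome 1, 74153989 to 74161246, plus strand) did not pass the filter in any tissue. In the heart it had 9, 9 and 25 counts in controls and 2, 2 and 1 in SN-011 samples, so that every SN-011 sample lay below every control and at or under the floor of 3 counts. The mean of controls was 0.816 ± 0.456 CPM and that of SN-011 samples 0.110 ± 0.0404 CPM (SD, n = 3, exact permutation p = 0.1, two-sided, the smallest that 3 against 3 allows), where groups that did not overlap with SN-011 lower were found for 13.1% of genes tested. Without the filter, edgeR's quasi-likelihood test gave an adjusted p of 0.0317. Tongue counts were 7, 2 and 18 in controls and 2, 4 and 0 in SN-011 samples, which overlapped, stomach counts were 0, 9 and 0 against 12, 0 and 9, and muscle counts were at most 3. In the same heart samples the groups of Csf3r and Retnlg overlapped.

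Cxcl2 (ENSMUSG00000058427, chromosome 5, 90903871 to 90905938, plus strand) and Cxcl5 (ENSMUSG00000029371, chromosome 5, 90759360 to 90761624, plus strand) lie in the same chemokine cluster. In the stomach, Cxcl2 had 2, 7 and 19 counts in controls and 74, 1 and 47 in SN-011 samples (log2 fold change 2.13, SE 1.17, adjusted p = 0.292). Cxcl5 had 2, 11 and 13 counts against 51, 6 and 43 (log2 fold change 1.93, SE 0.90, adjusted p = 0.225). Both genes were high in stomach SN-011 replicates 1 and 3 and within the range of controls or below it in replicate 2. Heart Cxcl5 had 38, 28 and 83 counts in controls and 37, 19 and 32 in SN-011 samples (log2 fold change −0.56, adjusted p = 0.469), and heart Cxcl2 had 8, 15 and 8 against 7, 6 and 18. In the muscle Cxcl5 had 0, 0 and 1 counts in controls and 9, 0 and 7 in SN-011 samples, and Cxcl2 had 1 to 4 and 0 to 7. Tongue counts were 3 to 29 for Cxcl5 and 5 to 24 for Cxcl2, with the highest of each in control replicate 3.

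Retnlg (ENSMUSG00000022651, chromosome 16, 48872621 to 48874496, plus strand), known mainly from mature neutrophils, had at most 21 counts in any library. Heart counts were 8, 3 and 21 in controls and 16, 5 and 10 in SN-011 samples (log2 fold change 0.17, 95% interval −1.37 to 1.71, adjusted p = 0.913). Stomach counts were 0, 0 and 0 against 0, 12 and 5, muscle counts at most 4, and tongue counts 11, 0 and 1 against 11, 1 and 7, and the groups overlapped in each of these tissues. A difference in Retnlg was not detectable at this depth outside the heart, and in the heart the interval spans both directions.

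In the stomach, markers of squamous epithelium lay higher beside the 8 genes. The 12 markers of squamous epithelium, which lines the forestomach of the mouse, all had a positive log2 fold change in the stomach (median 2.10, 11 of 12 without overlap between groups, 0 past the adjusted threshold), and their summed level was 152 to 304 CPM in controls and 627 to 1809 CPM in SN-011 samples. The summed level of the 8 genes was 4.76, 5.67 and 9.09 CPM in controls and 39.6, 14.4 and 27.8 CPM in SN-011 samples. The sum of the 8 genes also did not overlap in the heart (29.8 to 56.8 against 72.3 to 81.5 CPM) and the muscle (3.57 to 8.92 against 14.02 to 36.5 CPM). Lcn2 alone made up most of the SN-011 sums there, at 49.8 to 58.7 CPM in the heart and 9.02 to 28.7 CPM in the muscle. These 2 sums therefore do not describe the 8 genes as a set, and in the heart 3 of the 6 tested had a positive log2 fold change. For both stomach lists SN-011 replicate 1 was the highest and replicate 2 the lowest of the SN-011 samples, and the part of the squamous markers in the values of the 8 genes was not tested. The summed red cell markers had that order of SN-011 samples too, and overlapped between groups. So did the order of the macrophage markers and of the mature neutrophil, specific granule and other chemokine and cytokine lists described below. In stomach controls 1, 2 and 3 the squamous sums were 304, 298 and 152 CPM, the reverse of the order of the 8 genes. Gastric gland markers overlapped, at 114820, 56598 and 34123 CPM in controls 1, 2 and 3 and 19644, 100540 and 35132 CPM in SN-011 replicates 1, 2 and 3. In both groups this was the reverse of the order of the 8 genes. The part of the gastric gland markers in their values was not tested. The 12 monocyte and macrophage markers also overlapped, at 643 to 902 and 482 to 1368 CPM, with 9 of 12 positive and a median log2 fold change of 0.28.

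**Figure D4:**
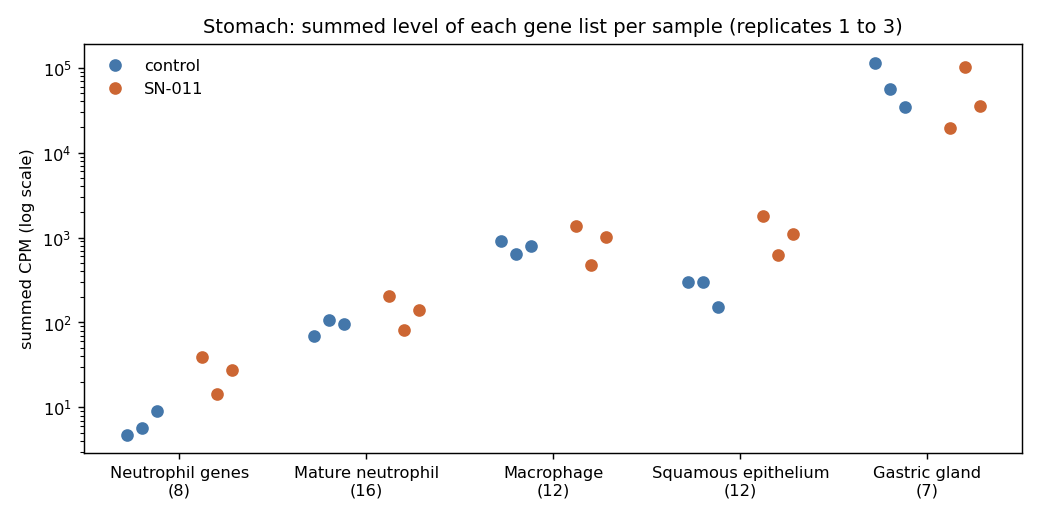
Summed CPM (log scale) of the 8 genes and of the lists of mature neutrophil, macrophage, squamous and gastric gland genes in the 6 stomach samples, controls in blue and SN-011 in orange, replicates 1 to 3 from left to right, with the number of genes per list in brackets. The 8 neutrophil genes and the squamous markers lie higher in all 3 SN-011 samples, and the other lists plotted overlap.

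Other genes of mature neutrophils were followed with a list of 16, whose surface and cytosolic products are also made by monocytes, mast cells or lymphocytes in part. In the stomach 12 were tested, 10 with a positive value and 6 at an unadjusted p under 0.05, all higher, with a median log2 fold change of 1.38 and 0 past the adjusted threshold. Hdc, which makes histamine, had a log2 fold change of 1.01 (adjusted p = 0.174), and Itgb2, the common chain of the leukocyte integrins, 0.19 (adjusted p = 0.834). The largest values, named after they were seen, were those of the integrin chain Itgam (2.88, adjusted p = 0.0885) and the lectin receptor Clec4d (2.58, adjusted p = 0.0885). Positive values were found for 4 of 12 in the heart (median −0.37), 7 of 9 in the muscle (median 0.40) and 8 of 12 in the tongue (median 0.09), with 0 past the adjusted threshold. The 6 genes of specific granules had a summed level of 12.3 to 18.4 CPM in stomach controls and 20.3 to 33.7 CPM in stomach SN-011 samples, without overlap. Only 2 of them passed the filter there. Ltf, the iron-binding protein lactoferrin, had a log2 fold change of 0.73 (adjusted p = 0.159) and the gelatinase Mmp9 2.06 (adjusted p = 0.147), neither with overlap. In the heart, where 3 passed it, both values were negative, at −0.59 for Ltf (adjusted p = 0.612) and −0.91 for Mmp9 (adjusted p = 0.356), with groups that overlapped. Chil3, a chitinase-like protein, had 60, 29 and 93 counts in heart controls and 99, 86 and 106 in heart SN-011 samples (log2 fold change 0.88, adjusted p = 0.163). These groups did not overlap, as was found with SN-011 higher for 14.1% of all genes tested in the heart. In the tongue it had 31, 50 and 10 counts against 126, 58 and 65 (log2 fold change 1.45, adjusted p = 0.389). Primary granule genes were too low for the filter except Prtn3 in the heart (log2 fold change 0.36, adjusted p = 0.814).

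A list of 14 other chemokines and cytokines that recruit or mobilise neutrophils was also followed. The filter left 5 of them to test for heart, 5 for stomach, 6 for tongue and 2 for muscle. Only 1 passed the threshold, among the 5 tested for heart, where 0.848% of all genes tested did. Ppbp, the precursor of the platelet chemokine CXCL7 and a ligand of Cxcr2, rose in the heart from 19, 14 and 26 counts in controls to 94, 47 and 67 in SN-011 samples (log2 fold change 1.99, adjusted p = 0.0454). In the stomach Ppbp had 15, 8 and 13 counts against 52, 30 and 40 (log2 fold change 1.65, adjusted p = 0.148). Those groups did not overlap, as was found with SN-011 higher for 17.8% of all genes tested there. Tongue counts were 12, 9 and 8 against 91, 32 and 38 (log2 fold change 2.47, adjusted p = 0.263), and the muscle groups overlapped. In 5 of the 6 fits that left out a heart sample, 0 list genes passed. Platelet markers stood beside Ppbp in the heart, with a summed level of 17.9 to 18.5 CPM in controls and 22.2 to 26.7 CPM in SN-011 samples. Their sums overlapped in the stomach (7.28 to 20.2 against 15.5 to 27.3 CPM) and the tongue (36.3 to 65.1 against 51.8 to 53.2 CPM). The part of platelet markers in the Ppbp values was not tested. Tnf, which activates neutrophils and endothelium, had 86, 30 and 201 counts in heart controls and 25, 30 and 26 in heart SN-011 samples (log2 fold change −1.73, adjusted p = 0.117), and 86, 93 and 150 against 55, 30 and 35 in the tongue (log2 fold change −1.45, adjusted p = 0.273). Il1b had log2 fold changes of 0.41 in the heart (adjusted p = 0.673) and 0.08 in the stomach (adjusted p = 0.958). In the tongue it had 20, 242 and 132 counts in controls and 70, 38 and 14 in SN-011 samples, which overlapped (log2 fold change −1.73, adjusted p = 0.452). Il17a had at most 3 counts in any library.

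The level of each gene in the 4 tissues was compared among the 12 control samples, in a joint edgeR fit of all 24 samples with Benjamini-Hochberg adjustment over 19731 genes in each pair of tissues. Of 48 combinations of gene and pair of tissues, 21 passed the threshold, and of all genes 42.5% did for heart and stomach, 33.7% for heart and muscle, 29.1% for heart and tongue, 51.6% for stomach and muscle, 36.9% for stomach and tongue and 38.1% for muscle and tongue. Without tongue control replicate 3, 13 passed. Csf3r was highest in the heart, at 4.92 ± 1.18 CPM per kb of exon (SD, n = 3), then in the tongue at 1.89 ± 0.42, the muscle at 1.33 ± 0.057 and the stomach at 0.563 ± 0.149. Each of its neighbours in this order differed except muscle and tongue (adjusted p = 0.279). The difference of heart from tongue was 1.38 log2 units (adjusted p = 0.00563) and that of muscle from stomach 1.22 (stomach minus muscle −1.22, adjusted p = 0.00862).

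Lcn2 was likewise highest in heart controls, at 6.68 ± 4.83 CPM per kb, followed by the tongue at 1.77 ± 0.893, the muscle at 1.64 ± 1.23 and the stomach at 0.442 ± 0.304. Heart differed from tongue by 1.92 log2 units (adjusted p = 0.0306) and stomach from muscle by −1.93 (adjusted p = 0.0266), while muscle and tongue did not differ beyond their spread (adjusted p = 0.923). The call for heart and tongue was lost without tongue control 2 (adjusted p = 0.128), tongue control 3 (0.0535) or heart control 1 (0.220), and that for stomach and muscle without muscle control 1 (0.163) or 3 (0.0621), or stomach control 2 (0.101) or 3 (0.0939). Cxcl5 was 1.35 ± 0.680 CPM per kb in the heart, 0.356 ± 0.404 in the tongue, 0.228 ± 0.133 in the stomach and 0.0152 ± 0.0263 in the muscle, where it was near 0. It differed between stomach and muscle (adjusted p = 0.0372) but not between heart and tongue (adjusted p = 0.121) or stomach and tongue (adjusted p = 0.658). The difference of heart from tongue passed with mouse as a block (adjusted p = 0.0255) and without tongue control replicate 3 (3.42 log2 units, adjusted p = 0.0289). That of stomach from muscle was lost without muscle control 1 (adjusted p = 0.117) or 2 (0.112), or stomach control 2 (0.0797) or 3 (0.0807). Retnlg was at 0 counts in the 3 stomach controls, and 0.891 ± 0.722 CPM per kb in the heart, which differed from the stomach (adjusted p = 0.0110). Retnlg was 0.323 ± 0.485 CPM per kb in the tongue and 0.291 ± 0.243 in the muscle, which did not differ from each other (adjusted p = 0.940) or from the heart (adjusted p = 0.417 and 0.374).

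S100a8 and S100a9 had tongue means of 67.5 ± 114 and 110 ± 187 CPM per kb, from 199 and 326 in control 3 and at most 2.97 in the other tongue controls. All 6 of their differences between the tongue and another tissue passed with that library and none without it. S100a8 averaged 1.73 CPM per kb in heart controls, 1.17 in stomach and 1.03 in muscle controls, and S100a9 averaged 2.28, 0.703 and 1.96 CPM per kb, without a difference past the threshold among these tissues. Cxcr2 and Cxcl2 were low in every tissue, at 0.046 to 0.24 and 0.083 to 0.34 CPM per kb, and none of their differences between tissues passed. The 3 stomach controls had 0, 0.452 and 3.05 CPM per kb of S100a8, so that its mean there rests on control 3. Per kb of exon, Lcn2 and Csf3r had the highest means in the heart, S100a8 and S100a9 in the stomach and S100a9 and Lcn2 in the muscle.

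**Figure D5:**
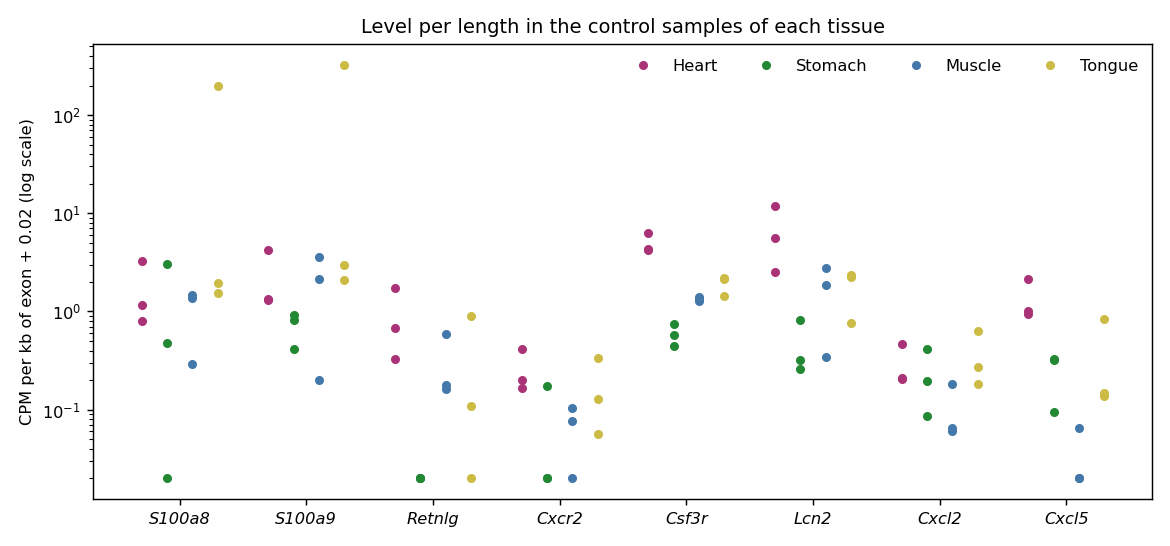
CPM per kb of merged exon (plus 0.02, log scale) of each gene in the 3 control samples of each tissue, a point per sample. Csf3r, Lcn2 and Cxcl5 are highest in the heart, and the 2 points above 100 are S100a8 and S100a9 in tongue control replicate 3.

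Whether the SN-011 difference itself varied between tissues was tested by interaction in the same joint fit. Of 48 combinations, 2 passed the threshold, 1 for heart against stomach, where 2.01% of all genes did, and 1 for stomach against tongue, where 0.821% did. For the other pairs these shares were 6.95% (stomach and muscle), 0.0355% (muscle and tongue), 0.00507% (heart and muscle) and 0.0% (heart and tongue). Csf3r differed between heart and stomach by −1.99 log2 units (SE 0.50, adjusted p = 0.0440), from −0.27 in the heart and 1.74 in the stomach in their own fits. S100a9 differed between stomach and tongue by 8.09 (SE 1.81, adjusted p = 0.0421), which was 2.66 (adjusted p = 0.246) without tongue control replicate 3. For Lcn2, no pair of tissues differed past the threshold, and the heart minus stomach difference was −0.99 (95% interval −2.90 to 0.91, adjusted p = 0.647).

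Not all of the 8 genes varied together over the 24 samples. With each tissue's mean removed, Pearson's r over the 24 samples, which share tissues and perhaps mice, was 0.80 for Cxcl2 with Cxcl5, 0.66 for S100a8 with Cxcl5 and 0.60 for S100a8 with Cxcl2, but 0.10 for S100a8 with Lcn2, −0.05 for S100a8 with Retnlg and 0.33 for Csf3r with Lcn2. Some of these values depended on tongue control replicate 3. Without it, r with S100a8 was 0.16 for Lcn2, 0.25 for Retnlg and 0.63 for Cxcl5. It rose from 0.22 to 0.59 for S100a8 with Csf3r and from 0.28 to 0.62 for S100a9 with Lcn2. Treatment means were not removed, so r also holds any difference that genes share between SN-011 and control samples. Within the 12 controls, r was 0.55 for Cxcl2 with Cxcl5, 0.89 for S100a8 with Cxcl5 and −0.21 for Csf3r with Lcn2. The genes most like each were looked up among all that passed the joint filter, as a description. Those of Cxcl5 included the related chemokine Cxcl1 (r = 0.81, and 0.80 within the controls) and Cxcl2 (0.80). Those of Lcn2 were Gm10638 (0.89), the transcription factor Nfil3 (0.87) and the ion channel Trpv4 (0.86). Within the 12 controls these 3 had an r of 0.65, 0.73 and 0.68 with Lcn2. After S100a9, the closest to S100a8 were Atp13a4 and Itih1 (0.85 each), and the closest to S100a9 after S100a8 were Gm47316 and Sprr2e (0.86 each), the latter a protein of the cornified envelope. Without tongue control replicate 3, the values with S100a9 were 0.07 for Gm47316 and 0.17 for Sprr2e, and those with S100a8 were 0.49 for Atp13a4 and 0.63 for Itih1. Csf3r had Gm28876 (0.86), 1600014C10Rik (0.83) and Plekha4 (0.81), and Cxcl2 had Slc38a4, Rnf207 and Gabrp (0.81 to 0.82). Within the 12 controls the values for Csf3r were 0.87, 0.52 and 0.56, and those for Cxcl2 were 0.43, 0.62 and 0.68, in the same order. For Retnlg and Cxcr2, whose counts were low, the highest r was 0.77, with Gm26705 and Ano3.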

How the data were processed

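Paired reads of poly(A)+ RNA were made from 4 tissues of Trex1-KO mice, and the labels of the 24 samples, which give tissue and treatment, set the groups. The authors deposited raw counts of read pairs per gene, 1 table per sample, for 54532 genes, with no normalization. The labels name HISAT2, HTSeq and the build mm10, and the methods of the study name Trimmomatic, hisat2 with uniquely mapped pairs, and featureCounts. Symbols, positions and merged exon lengths were taken from GENCODE M21 (GRCm38), which holds 54495 of the identifiers. None of the 8 genes overlaps another gene there. Totals per sample bound the precision of a single count to 0.163 to 0.210 CPM for 3 counts.

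With edgeR 4.0.16 under R 4.3.3, the 6 samples of a tissue were fitted without the others, by quasi-likelihood, after filterByExpr at a minimum count of 10 and a minimum total of 15 and TMM scaling, with the prior count set to 0.125, and p-values were adjusted over all genes tested. The standard error was the log2 fold change over the square root of F, and the 95% interval was taken from it. Levels between tissues and interactions used a joint fit of all 24 samples. Genes under the filter were compared by exact permutation over 20 relabellings, two-sided. The fits were tested on simulated data. Nothing states that samples are separate litters, so p-values measure the spread between these samples. Within a tissue, control and SN-011 samples of the same number did not deviate together. The 8 genes and the lists of other genes were chosen with earlier results of these data known. Named are the 8 genes in every tissue, list genes past the threshold or the 3 most abundant of a list in a tissue, the 3 genes with the highest r for each of the 8, and Xist, Ddx3y and Trex1. Genes that this rule names and the text does not are not reported here. Other genes carry a remark where they were picked after their values were seen. Alternatives tried were library size alone, no filter, at least 10 counts in every sample, a prior count of 2, DESeq2 1.42.0 and its size factors. Also tried were edgeR's exact test, the joint fit, the replicate block and each sample left out. For r they were the control samples alone, and all samples without tongue control replicate 3. The latter was chosen after seeing the data. Tables and figures used Python 3.11.15, pandas 2.3.3, numpy 2.4.6, scipy 1.17.1 and matplotlib 3.10.9. Retnlg, Cxcl2 and Cxcl5 have related genes, and the deposited counts do not show how reads shared between them were treated.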

Additional observations from a re-analysis of the deposited data

Results flagged for a closer look

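The results for Csf3r and S100a9 stood out because the SN-011 difference itself varied between tissues in the interaction test of the joint edgeR fit. For Csf3r the SN-011 difference in the heart minus that in the stomach was −1.99 log2 units (adjusted p = 0.0440, and 0.0756 with mouse as a block). The call was made in 5 of the 24 fits that each left out a sample, with values of −2.27 to −1.73. For S100a9 the SN-011 difference in the stomach minus that in the tongue was 8.09 log2 units (adjusted p = 0.0421, and 0.0879 with mouse as a block). It was called in 6 of those 24 fits, with values of 2.66 to 8.66, and the lowest is the fit without tongue control replicate 3.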

How the results depend on the processing

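The number of the 8 genes past the threshold in a tissue was 0 in every tissue, and it moved with the method. In the heart it was 2 without a filter and 1 with edgeR's exact test. In the stomach it was 2 without a filter, 3 with DESeq2, 3 with edgeR's exact test and 2 in the joint fit, and in the muscle it was 1 with DESeq2. With each sample left out it was 0 to 1 in the heart (1 without control replicate 1), 0 in the stomach and muscle, and 0 to 2 in the tongue (2 without control replicate 1). The 21 differences between control tissues ranged from 13 to 23 and the 2 interactions from 0 to 5 with a sample left out. Among the list genes, the heart had 1 past the threshold, with 3 without a filter, 2 with DESeq2, 2 with edgeR's exact test and 0 in the joint fit, the stomach 0, with 3 without a filter, 3 with DESeq2, 3 with edgeR's exact test and 5 in the joint fit, and the tongue 0, with 2 by DESeq2 and 2 by edgeR's exact test. With a sample left out these were 0 to 3 (heart), 0 to 1 (stomach), 0 to 1 (muscle) and 0 to 4 (tongue). Calls among all genes moved as well: other methods called as many as 2738 stomach genes and 1888 heart genes, where the main fits called 0 and 137. The counts of the 8 genes and of list genes were not set against the share of all genes called in the same setting. They therefore do not show whether these genes passed more often than others. The same holds for single genes that passed only with another method or with a sample left out. The causes were not tested.

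The sign turned only for values that were small or rested on 1 library. With a sample left out, the heart values lay between −0.81 and 0.42 for S100a8, −0.27 and 0.86 for S100a9, and −0.31 and 1.02 for Retnlg. The muscle values lay between −0.52 and 0.59 for S100a8 and between −0.14 and 0.53 for Csf3r, and the tongue values of S100a8 between −5.84 and 0.19, the last without control 3. With library size alone S100a9 in the heart was −0.11 and S100a8 in the muscle −0.15. Within a tissue the numbers did not pair control with SN-011 samples: their deviations had mean correlations of −0.06 (heart), 0.07 (stomach), 0.04 (muscle) and −0.31 (tongue). With the replicate block, 0 of the 8 genes and 0 list genes passed in any tissue, S100a8 in the muscle was −0.42, and with mouse as a block 21 tissue differences and 0 interactions passed, S100a8 in heart and tongue being lost (adjusted p = 0.0774) and Cxcl5 in heart and tongue gained. Over all genes, the number past the threshold went from 1 to 1888 (heart), 0 to 2738 (stomach), 0 to 1103 (muscle) and 0 to 2135 (tongue).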
